A study of Mus musculus with 6 samples.

Results

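The genes described here are 10 that are switched on as mesenchymal cells of the embryonic kidney commit to nephron epithelium: Pax8, Lhx1, Irx1, Irx2, Pou3f3, Osr2, Cdh6, Cdh4, Papss2 and Greb1. They were taken by name, all 10 were measured among 18193 genes on Affymetrix MOE430.2 arrays, and each was represented by its brightest probe set that carries no other gene. Whole kidneys of E13.5 mouse embryos were profiled on 6 arrays, from a hybrid of the C57BL/6, 129X1/SvJ and 129S1/Sv strains. The arrays C1, C2 and C3 were of Fz4+/+Fz8-/- kidneys (Fz8-null, n = 3) and M1, M2 and M3 of Fz4-/-Fz8-/- kidneys (double-null, n = 3). Every kidney therefore lacked Fz8, a Frizzled receptor for Wnt ligands, and no wild-type kidney was included. The comparison asked what changes when Fz4 is lost as well. The labels do not say whether an array holds 1 embryo or several, so the spread among arrays may be partly technical.

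Nephrons arise from cap mesenchyme around the tips of the ureteric bud. A Wnt signal from the bud starts Wnt4 and Fgf8 expression in a pretubular aggregate, which turns into an epithelial renal vesicle and then into comma-shaped and S-shaped bodies. Pax8 and Lhx1 encode transcription factors of the first steps, Iroquois and POU factors mark parts of the later tubule, and cadherins hold the new epithelium together. At this stage the kidney is small, and progenitors, vesicles and the first S-shaped bodies are present side by side.

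Fzd4, the targeted gene, fell in the double-null kidneys, as their labels give it, at a log2 intensity of 10.74, 10.86 and 10.93 in C1, C2 and C3 and 5.29, 4.96 and 3.89 in M1, M2 and M3 (log2 difference -6.13, SE 0.35, limma adjusted p = 0.00318; exact permutation p = 0.1). Fzd8 read between 3.57 and 4.42 in all 6 arrays. Of 8 kidney genes, 7 were measured, and they read from 6.86 (Six2 in M2) to 10.81 (Wt1 in C1), so the tissue carried its defining transcripts. They were not equal between the groups. All 7 had a lower mean in double-null arrays, 4 of them without overlap, with a median difference of -0.32. Of all genes 58.1% had a lower mean and 12.2% lay lower without overlap. All 3 double-null arrays stood apart in some respect. The B1 repeat control was highest in M1 and M2, at 11.83 and 12.08, against 10.67 to 11.02 in the Fz8-null arrays and 10.85 in M3. M2 and M3 had the highest liver transcripts, with a mean log2 intensity over 8 liver genes of 9.40 and 9.63 against 6.69 in M1 and 5.56 to 6.38 in Fz8-null arrays. The log2 signal of Gapdh at its 5' end minus that at its 3' end, a measure of RNA integrity, lay between -1.15 in M1 and -0.79 in C3. For beta-actin it read -1.30, -1.08 and -0.57 in M1, M2 and M3, the first 2 below and M3 above all Fz8-null arrays (highest -0.74), and its part in the results was not tested.

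None of the 10 genes passed the threshold (limma, adjusted p under 0.05 over all genes), where 0.0275% of all genes did (0.022% lower and 0.0055% higher). At an unadjusted p under 0.05 limma gave 2 of them lower and 1 higher, where 15.3% of all genes passed in either direction (9.23% lower and 6.05% higher). The 2 groups did not overlap for 4 of the 10, a state found for 18.9% of all genes: Greb1, Pou3f3 and Lhx1 lay lower in all 3 double-null arrays (12.2% of all genes did so) and Irx2 lay higher (6.68% did so). Lhx1 overlapped after quantile normalization, with equal array medians and with the mean of all its probe sets, and the other 3 did not. In the mean, 7 of the 10 lay lower and 3 higher, with a median difference of -0.072 against -0.061 over all genes. With quantile normalization or equal array medians 5 of the 10 lay lower, so the list as a whole had no settled direction. Whole kidneys were profiled, so fewer cells of a type and less RNA per cell cannot be told apart.

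**Figure D1:**
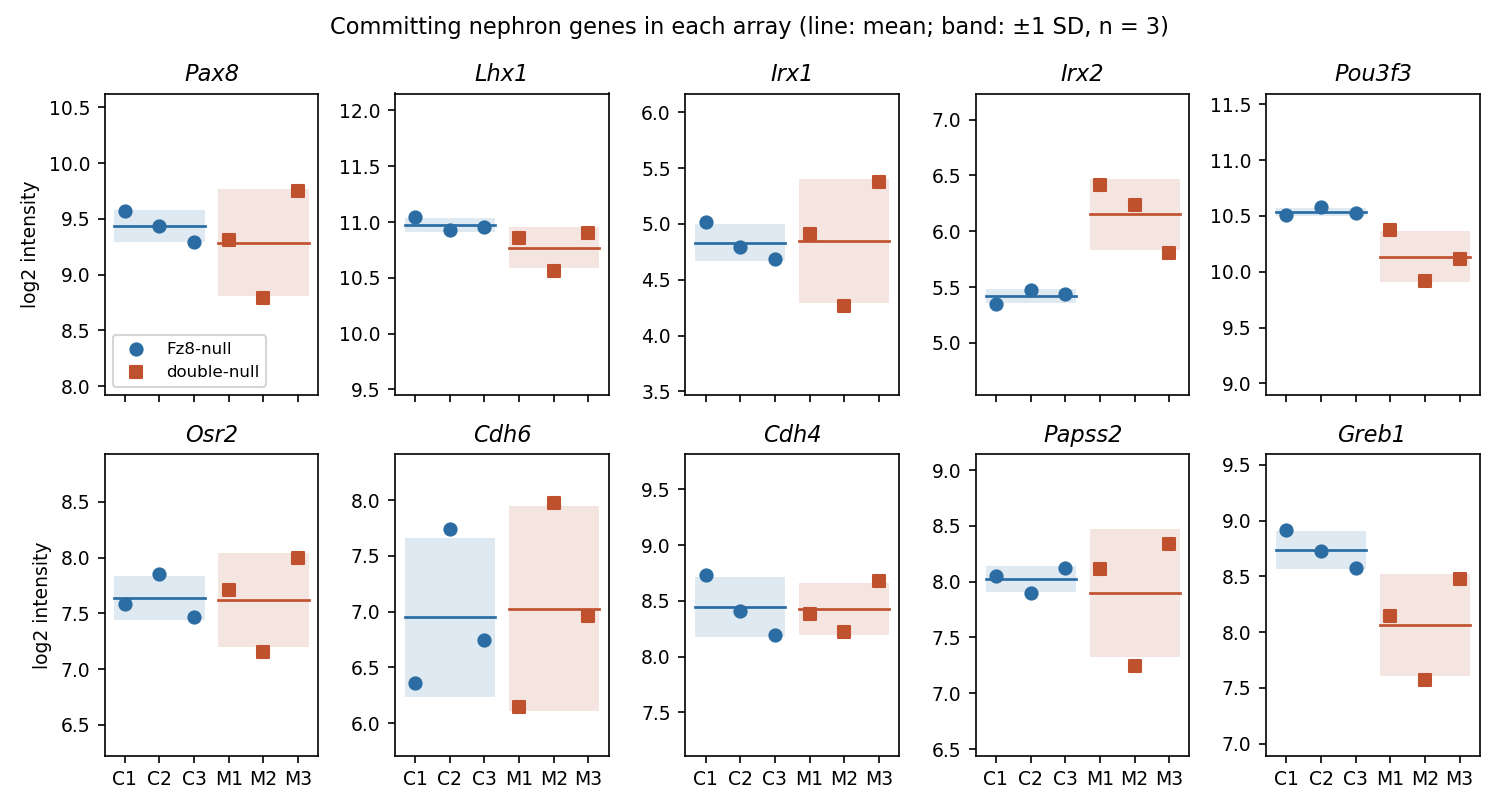
Log2 probe-set intensity (vertical axis, every panel spanning the same range) of the 10 genes in each Fz8-null (C1 to C3, circles) and double-null (M1 to M3, squares) array; lines are means and bands ±1 SD of 3 arrays. The groups separate for Irx2, Pou3f3, Greb1 and Lhx1, and M2 is the lowest double-null array for 8 of the 10 genes.

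Irx2 lay higher without overlap. It encodes an Iroquois homeodomain factor, a family that patterns the middle and distal parts of the forming nephron. It read 5.35, 5.48 and 5.44 in C1, C2 and C3 and 6.42, 6.23 and 5.80 in M1, M2 and M3. All 3 double-null arrays were above every Fz8-null array, and the Fz8-null arrays lay close together. The means were 5.42 ± 0.06 and 6.15 ± 0.32 (SD, n = 3 in each), a difference of 0.73 on the log2 scale (SE 0.18, 95% CI 0.30 to 1.16), or 1.66-fold. The unadjusted limma p was 0.00508 and the adjusted p 0.314, so the difference did not pass over all genes. Irx2 has 1 probe set on the array, at a level above 46.8% of all probe sets.

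The difference of Irx2 varied among the double-null arrays. It was largest in M1 and M2, where the B1 repeat signal was also highest, at 0.99 and 0.81 above the Fz8-null mean, and 0.38 in M3. Without M3 it was 0.90 and passed (limma adjusted p = 0.00994), but so did 18.1% of all genes, 3292 of 18193. A fit that took the B1 signal as covariate gave 0.44 (limma adjusted p = 0.957). The part of the B1 signal in the difference was not tested.

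Irx1 is the neighbour of Irx2 in the genome, with no protein-coding gene between them in the RefSeq gene table (GRCm38.p6). Its 95% CI overlapped that of Irx2 (0.30 to 1.16), and the genes were not tested against each other. Irx1 read 5.01, 4.80 and 4.69 in C1, C2 and C3 and 4.91, 4.26 and 5.37 in M1, M2 and M3. M2 was the lowest and M3 the highest of the 6 arrays. The groups overlapped, with a difference of 0.017 (SE 0.28, 95% CI -0.64 to 0.68, limma adjusted p = 0.980), and the level exceeded that of only 34.5% of probe sets. After quantile normalization the Irx1 difference was -0.13.

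Greb1 had the most negative difference of the 10 genes. Its product was named for its induction by estrogen and acts as a chromatin-bound coregulator of nuclear receptors. It read 8.91, 8.73 and 8.58 in C1, C2 and C3 and 8.15, 7.57 and 8.47 in M1, M2 and M3. The double-null arrays were all lower, M2 by the most, and M3 lay just under the lowest Fz8-null array. The means were 8.74 ± 0.17 and 8.06 ± 0.46 (SD, n = 3 in each), a difference of -0.67 (SE 0.24, 95% CI -1.25 to -0.10, limma adjusted p = 0.314). Only 3.64% of all genes had a more negative difference. Without M3 the difference was -0.88 and passed (limma adjusted p = 0.0339), where 18.1% of all genes passed, and M3 alone lay 0.27 below the Fz8-null mean (-0.27). The fit with the B1 signal as covariate gave a Greb1 difference of -0.27 (limma adjusted p = 0.997).

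Other probe sets of Greb1 gave the same sign with less separation. The second brightest read between 7.00 and 7.24 in Fz8-null arrays, 6.39 in M1, 6.41 in M2 and 7.27 in M3 (-0.42, SE 0.26), so that M3 stood above all Fz8-null arrays and M1 and M2 below them. A dimmer one stood at -0.62 (SE 0.24) with overlapping groups, and the dimmest, which read between 4.86 and 5.11 in every array, at -0.010 (SE 0.14).

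Pou3f3, also called Brn1, encodes a POU-domain factor needed for the loop of Henle and distal tubule. It read 10.51, 10.58 and 10.52 in C1, C2 and C3 and 10.37, 9.92 and 10.12 in M1, M2 and M3. The Fz8-null arrays agreed closely and all double-null arrays lay below them, M1 the nearest. The means were 10.54 ± 0.03 and 10.14 ± 0.23 (SD, n = 3 in each), a difference of -0.40 (SE 0.15, 95% CI -0.76 to -0.04, limma adjusted p = 0.317). Without M2 it was -0.29 and without M1 and M2 together -0.42. A second Pou3f3 probe set lay between 4.23 and 4.50 in all arrays and stood at -0.15 (SE 0.13).

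Lhx1 encodes the LIM homeodomain factor Lim1, required to pattern the renal vesicle. Its brighter probe set read 11.05, 10.93 and 10.96 in C1, C2 and C3 and 10.86, 10.56 and 10.90 in M1, M2 and M3. The groups did not overlap, yet M3 lay within 0.1 of the lowest Fz8-null array, and the difference was small at -0.21 (SE 0.14, 95% CI -0.54 to 0.13, limma adjusted p = 0.468). A dimmer probe set showed a wider one. It read 8.09, 8.12 and 7.98 in Fz8-null arrays, 7.01 in M1, 6.75 in M2 and 8.05 in M3, for a difference of -0.79 (SE 0.33, limma adjusted p = 0.323 over all probe sets). M1 and M2 were thus far below the Fz8-null arrays and M3 among them, and the 2 Lhx1 probe sets differ in the size of the difference by more than 3 times.

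**Figure D2:**
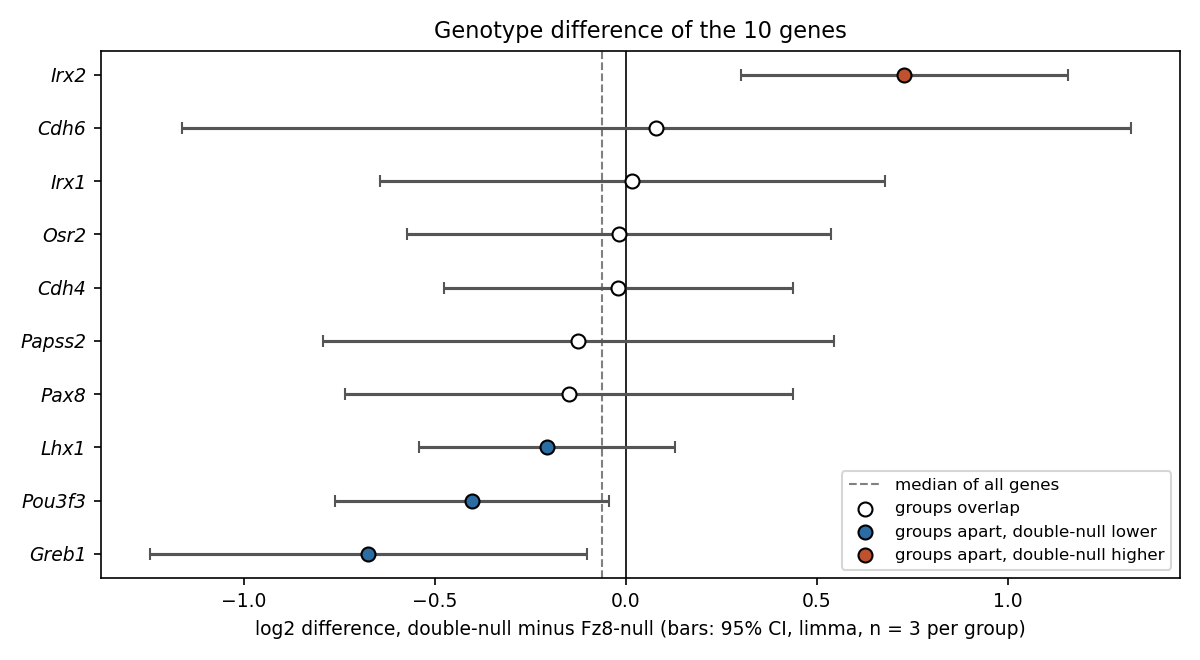
Log2 difference of each gene (points), double-null minus Fz8-null, with limma's 95% confidence interval (bars, n = 3 arrays per group); filled points mark genes whose groups did not overlap and the dashed line the median of all genes. The intervals of Irx2, Pou3f3 and Greb1 leave out 0, without adjustment for the number of genes tested.

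The 4 genes whose groups separated are shown with the 250 bases before their start, read from RefSeq promoter sequences (GRCm38.p6), 5′ to 3′ on the gene's own strand. Capitals mark the CCAAT box (CCAAT or ATTGG), a common promoter element bound by NF-Y.
Irx2, chr13:72628570-72628819, plus strand: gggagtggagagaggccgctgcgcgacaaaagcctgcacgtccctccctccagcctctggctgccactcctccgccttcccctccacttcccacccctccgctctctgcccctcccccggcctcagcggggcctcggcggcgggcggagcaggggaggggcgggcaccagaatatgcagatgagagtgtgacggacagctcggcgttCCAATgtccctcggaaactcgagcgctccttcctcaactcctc
Greb1, chr12:16800887-16801136, minus strand: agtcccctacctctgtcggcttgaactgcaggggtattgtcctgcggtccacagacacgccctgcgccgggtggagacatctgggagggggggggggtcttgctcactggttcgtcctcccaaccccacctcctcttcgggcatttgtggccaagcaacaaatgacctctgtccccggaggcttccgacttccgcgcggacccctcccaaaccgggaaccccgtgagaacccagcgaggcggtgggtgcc
Pou3f3, chr1:42695518-42695767, plus strand: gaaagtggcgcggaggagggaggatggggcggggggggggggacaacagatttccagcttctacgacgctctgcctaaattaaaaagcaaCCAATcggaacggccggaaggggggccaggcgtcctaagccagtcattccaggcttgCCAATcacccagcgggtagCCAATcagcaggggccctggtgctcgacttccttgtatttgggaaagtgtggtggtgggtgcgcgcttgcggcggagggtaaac
Lhx1, chr11:84525535-84525784, minus strand: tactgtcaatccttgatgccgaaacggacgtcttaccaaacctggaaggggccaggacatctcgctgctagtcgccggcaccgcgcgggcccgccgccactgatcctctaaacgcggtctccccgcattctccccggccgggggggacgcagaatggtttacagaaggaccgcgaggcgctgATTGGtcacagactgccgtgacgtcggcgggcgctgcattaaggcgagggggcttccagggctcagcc

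The table held 9 promoters for 7 of the 10 genes, each running from 250 bases before to 50 after the start; Irx1, Osr2 and Cdh4 were not matched. A set of 5 motifs was searched on both strands. CCAAT was in 7 of the 9, against 37.4% of all 32851 promoters of that length, with 3 copies in Pou3f3 at 160, 103 and 84 bases before the start, 1 in Lhx1 at 68 bases and 1 in Irx2 at 43 bases. Greb1 and Papss2 each gave 2 of the 9 promoters, so the 9 are not separate genes. Both Greb1 promoters are among the 7. The one shown above has its match 25 bases after the start, outside the bases shown, and the other has it 216 bases before the start. CTTTGAT, bound by the TCF and LEF factors of canonical Wnt signalling, was in 1 of the 9 (3.73% of all promoters), 39 bases after the second listed start of Greb1. The POU octamer ATGCAAAT (1.74% of all promoters), the homeodomain core TAATTA (5.29%) and the Iroquois motif ACANNTGT (7.38%) were in none of the 9. These are matches of letters in a short window, and binding was not measured.

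Pax8 encodes the paired-domain factor that acts with Pax2 at the start of nephron formation. It read 9.57, 9.44 and 9.30 in C1, C2 and C3 and 9.31, 8.79 and 9.75 in M1, M2 and M3. M2 was the lowest and M3 the highest of all 6 arrays, so that the groups overlapped, and the difference was -0.15 (SE 0.25, 95% CI -0.73 to 0.44, limma adjusted p = 0.766). Without M2 the Pax8 difference was 0.098. A dim Pax8 probe set lay higher without overlap, at 4.78, 4.55 and 4.78 in Fz8-null and 4.97, 5.31 and 5.04 in double-null arrays (0.40, SE 0.15, limma adjusted p = 0.323 over all probe sets). The 2 Pax8 probe sets thus differed in sign.

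Osr2, a zinc-finger factor gene related to the progenitor gene Osr1, read 7.59, 7.85 and 7.47 in C1, C2 and C3 and 7.71, 7.16 and 7.99 in M1, M2 and M3. M2 and M3 again lay at the low and the high end. The difference of -0.018 (SE 0.23, 95% CI -0.57 to 0.54, limma adjusted p = 0.974) turned to 0.11 after quantile normalization and 0.038 with equal array medians. A dimmer Osr2 probe set stood at 0.062 (SE 0.18), with overlapping groups.

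The 2 cadherin genes had means close to equal in both groups. Cdh6, a type II cadherin of the early proximal nephron, varied most of the 10 genes within a genotype. It read 6.36, 7.74 and 6.75 in C1, C2 and C3 and 6.14, 7.98 and 6.96 in M1, M2 and M3. One array in each group, C2 and M2, was more than 0.9 above the others of its group. The difference was 0.080 (SE 0.52, 95% CI -1.16 to 1.32, limma adjusted p = 0.946), and this interval includes a change of over 1 log2 unit in either direction. The second probe set of Cdh6 also read highest in C2 (5.18) and M2 (5.42) and stood at 0.23 (SE 0.23).

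Cdh4, the R-cadherin gene, encoding a classical adhesion molecule of epithelia, read 8.73, 8.41 and 8.19 in C1, C2 and C3 and 8.38, 8.22 and 8.68 in M1, M2 and M3. The ranges of the groups nearly coincided, with a difference of -0.020 (SE 0.19, 95% CI -0.48 to 0.44, limma adjusted p = 0.964). The sign of this value turned with quantile normalization (0.12) and with equal array medians (0.036). The other Cdh4 probe sets stood at 0.21 (SE 0.23) and 0.10 (SE 0.14).

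Papss2 encodes a synthase of the sulfate donor PAPS, used to sulfate glycans and steroids. It read 8.05, 7.89 and 8.13 in C1, C2 and C3 and 8.11, 7.25 and 8.34 in M1, M2 and M3. M2 alone was low, and M1 and M3 lay at or above the middle of the Fz8-null range. The difference was -0.13 (SE 0.28, 95% CI -0.79 to 0.54, limma adjusted p = 0.832), and it was 0.20 without M2 and 0.012 after quantile normalization. A Papss2 probe set of the type that can match more than 1 transcript read 7.18, 7.13 and 7.41 in Fz8-null and 7.00, 6.56 and 7.03 in double-null arrays, with no overlap (-0.38, SE 0.18, limma adjusted p = 0.335 over all probe sets). The remaining Papss2 probe sets, both dimmer, stood at 0.20 (SE 0.25) and 0.058 (SE 0.14) with overlapping groups, opposite in sign to the representative.

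**Figure D3:**
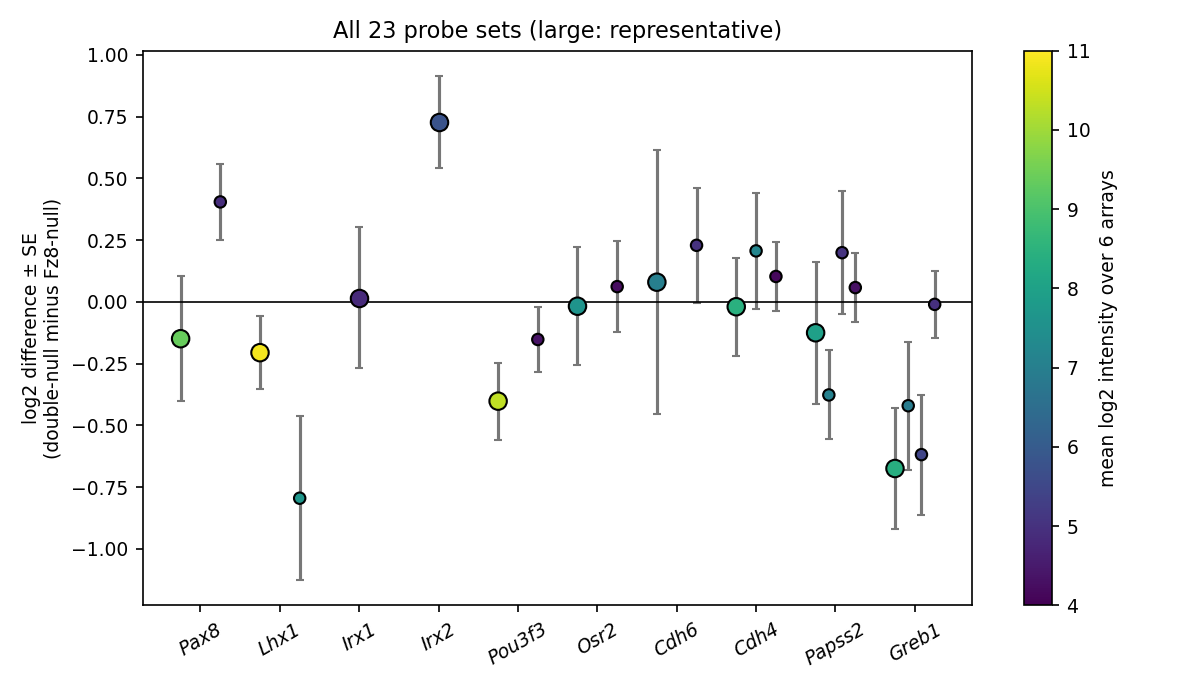
Log2 difference ± SE (vertical axis) of all 23 probe sets of the 10 genes; large points are the representatives and colour gives the mean log2 intensity over 6 arrays. Among the 12 probe sets with a mean of at least 6, 10 lay lower; the 2 probe sets of Lhx1 and of Pax8 stand apart from each other.

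In all the 10 genes had 23 probe sets, of which 13 lay lower and 10 higher, 4 and 2 of them without overlap (of all probe sets 18.6% had groups that did not overlap, 11.3% lower and 7.35% higher). None of the 23 passed (limma, adjusted p under 0.05 over all probe sets), where 0.0111% of all probe sets did. All 4 of the lower ones had a mean log2 intensity of at least 6, and both higher ones a mean below 6. Of the 12 probe sets with a mean of at least 6, 10 lay lower. Brighter genes lay lower in general: of the 11174 genes with such a mean, 71.5% were lower, with a median difference of -0.15.

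Most of the 10 genes had a like order among the double-null arrays. M2 was the lowest double-null array for 8 of the 10, where it was for 41.6% of all genes and 49.7% of genes with a mean of at least 6. It was the lowest of all 6 arrays for 7 of the 10, against 33.1% of all genes and 42.8% of genes with a mean of at least 6. M3 was the highest double-null array for 7 of the 10, against 51.2% of all genes and 60.2% of genes with a mean of at least 6. The exceptions to the M2 pattern were Irx2, lowest in M3, and Cdh6, lowest in M1. Measured from each gene's Fz8-null mean, the median of the 10 genes was -0.094 (M1), -0.52 (M2) and 0.27 (M3), while that of all genes was -0.077, -0.11 and 0.0077. For genes with a mean of at least 6 it was -0.17, -0.25 and -0.018. The SD was larger among double-null than among Fz8-null arrays for 9 of the 10 genes, as it was for 69.8% of all genes. M2 was also the lowest double-null array for 14 of the 23 other genes of the same step, 7 of 13 progenitor genes, 8 of 10 stroma genes and 7 of 8 endothelial genes. The counts were 6 of 9 ureteric tip genes, 5 of 9 ureteric trunk genes and 6 of 12 podocyte and tubule genes. They were 0 of 7 neuron and neural crest genes, 0 of 6 erythroid genes and 0 of 8 liver genes.

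**Figure D4:**
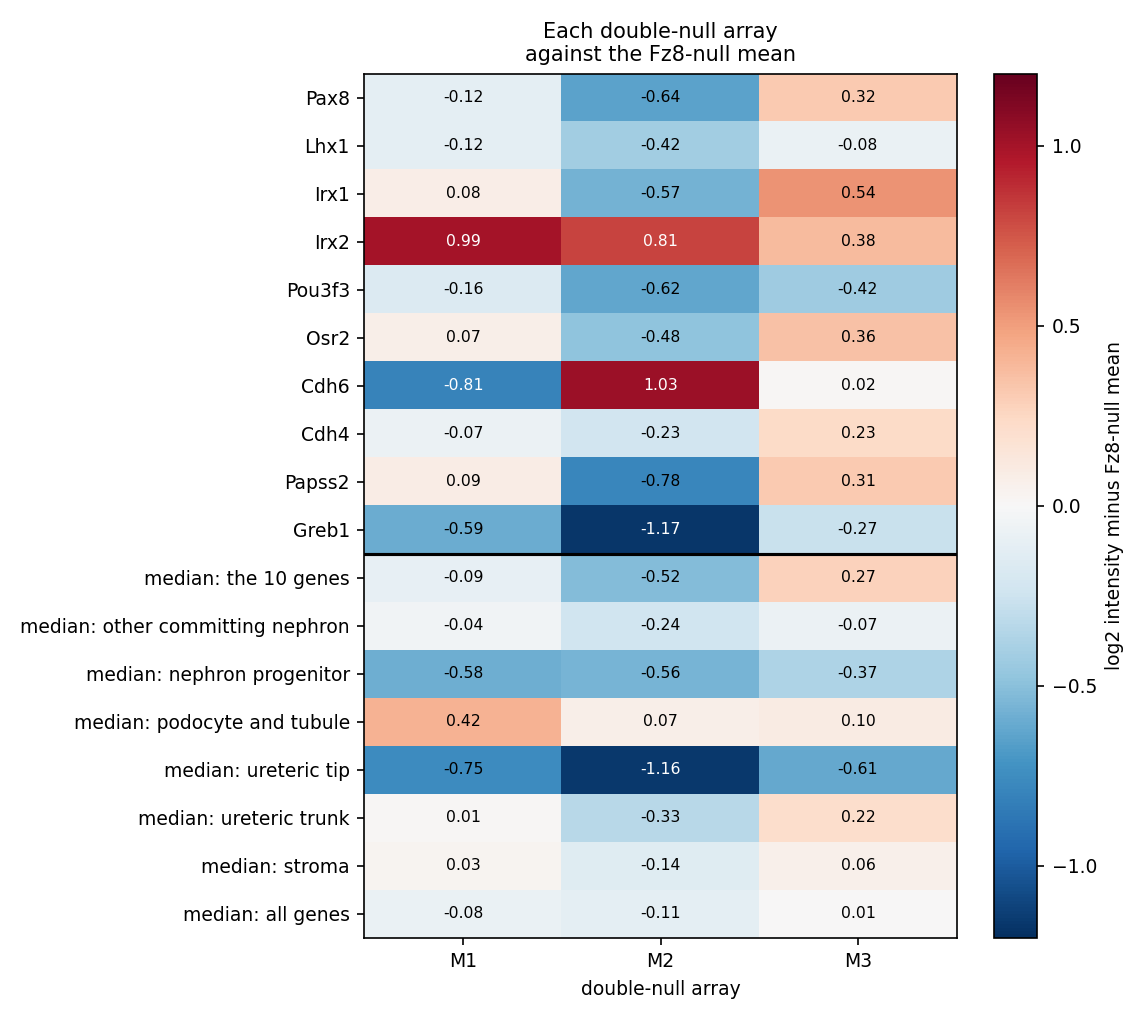
Log2 intensity of each double-null array minus the Fz8-null mean, for each of the 10 genes (upper rows) and as the median of each gene list (lower rows); red is higher and blue lower. The median of the 10 genes is negative in M2 (-0.52) and positive in M3 (0.27), while the progenitor and tip medians are negative in all 3 arrays.

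Other genes of the same step were taken from a list of 26, of which 23 were measured. None passed (limma, adjusted p under 0.05), 14 lay lower and 9 higher, 4 lay lower without overlap and 0 higher without overlap, and the median difference was -0.069. Lying lower without overlap was found for 12.2% of all genes and for 1816 of the 11174 brighter ones (mean log2 intensity of 6 or more). Among ligands and secreted factors 3 of 6 lay lower without overlap. The other 3 lay higher with overlapping groups, at differences of 0.0097, 0.059 and 0.12. Fgf8, needed for survival of the forming nephron, read 5.96, 6.74 and 6.17 in C1, C2 and C3 and 5.21, 5.35 and 5.57 in M1, M2 and M3. Every double-null array was below every Fz8-null array, at a difference of -0.92 (SE 0.22, limma adjusted p = 0.314), and without M3 the difference was -1.01 and passed (limma adjusted p = 0.0344), as did 18.1% of all genes.

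Wnt4, which drives the change from mesenchyme to epithelium, read 9.01, 8.84 and 8.61 in C1, C2 and C3 and 8.46, 8.05 and 8.54 in M1, M2 and M3. Its groups did not overlap either, with M3 close below C3 (-0.47, SE 0.18, limma adjusted p = 0.319). Dkk1, a secreted Wnt antagonist, stood at -0.34 (SE 0.13, limma adjusted p = 0.317), and the transcription factor gene Emx2, also expressed in the ureteric bud, at -0.32 (SE 0.14, limma adjusted p = 0.337), both without overlap. Fgf8, Wnt4, Dkk1 and Emx2 were described for having the smallest p of the list. The largest difference of the list was that of Lgr5, named after its values were seen, and it was positive (1.11, SE 0.53, limma adjusted p = 0.348). Lgr5 read 5.50 to 5.71 in Fz8-null arrays, 7.04 in M1, 7.68 in M2 and 5.39 in M3.

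The Notch genes of the renal vesicle overlapped between the groups. All 7 measured (Jag1, Dll1, Notch2, Lfng, Hes5, Hey1 and Heyl) had overlapping groups, with a median of -0.044. Jag1, the main Notch ligand gene of the vesicle, read 11.43, 11.01 and 11.19 in C1, C2 and C3 and 11.51, 11.12 and 11.24 in M1, M2 and M3 (0.079, SE 0.17, 95% CI -0.32 to 0.48). Heyl, a target gene of Notch signalling named here after its values were seen, had the most negative difference of the 7 (-0.61, SE 0.29, limma adjusted p = 0.342), at 7.80 to 7.94 in Fz8-null arrays, 7.20 in M1, 6.70 in M2 and 7.90 in M3. Of the 13 progenitor genes, the cells from which the vesicle forms, 13 lay lower and 8 of these without overlap, with a median of -0.38. Of the 12 measured podocyte and tubule genes, which follow the vesicle, 9 lay higher and 3 of these without overlap, with a median of 0.30. Of all genes 12.2% lay lower and 6.68% higher without overlap. The podocyte and tubule medians were 0.42, 0.069 and 0.096 in M1, M2 and M3, and M1 was the highest double-null array for 9 of the 12. Of these 12, 5 had a mean below 4, near background; the other 7 had a median of 0.71, and 5 lay higher (2 without overlap). No test of the difference between lists was made.

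Relatives of the 10 genes in the same protein families were set beside them, with the within-array difference between gene and relative compared over genotypes. In all 9 pairs were measured and Pax2, the relative of Pax8, was not analysed here. With 3 arrays against 3 the exact two-sided permutation p cannot go below 0.1, and none of the 9 pairs passed after adjustment (lowest Benjamini-Hochberg adjusted p = 0.45).

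Osr1, which encodes an early marker of the progenitor, read 7.02, 7.20 and 7.25 in C1, C2 and C3 and 5.41, 5.74 and 6.54 in M1, M2 and M3. Each double-null value was below all Fz8-null values (-1.26, SE 0.28, limma adjusted p = 0.314), and Osr2 minus Osr1 was 1.24 higher in double-null kidneys with no overlap of the groups (exact permutation p = 0.1). After adjustment over the pairs this difference did not pass (adjusted exact permutation p = 0.45).

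Greb1l, the relative of Greb1 whose loss impairs kidney formation, stood at -0.39 (SE 0.15, limma adjusted p = 0.318) and its groups did not overlap. The differences of Greb1 and Greb1l did not separate (Greb1 minus Greb1l -0.29, exact permutation p = 0.4). Papss1 (-0.074), Cdh2, the N-cadherin gene (-0.13), Lhx5 (-0.022) and Irx3 (0.11) stood near 0, as did Papss2, Cdh4 and Irx1.

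Pou3f2, Irx5 and Cdh10 lay higher in M1 and M2 alone. Pou3f2 read 5.67, 4.36 and 4.72 in C1, C2 and C3, 7.32 in M1, 8.16 in M2 and 5.30 in M3. Its difference of 2.01 (SE 0.72, limma adjusted p = 0.314) was of the opposite sign to that of Pou3f3. Pou3f3 minus Pou3f2 was lower by 2.41 with no overlap (difference -2.41, exact permutation p = 0.1), though M3 lay only just below C1. The SD of Pou3f3 minus Pou3f2 was 0.71 within Fz8-null and 1.54 within double-null arrays. Irx5 read 6.79, 7.45 and 5.30 in M1, M2 and M3, and Cdh10 7.69, 8.02 and 6.04, where the Fz8-null maxima were 6.07 and 6.21. Irx2 shared the sign of Irx5 but lay above the Fz8-null arrays in M3 too. M1 and M2 were the arrays of highest B1 repeat signal, whose part in these values was not tested.

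**Figure D5:**
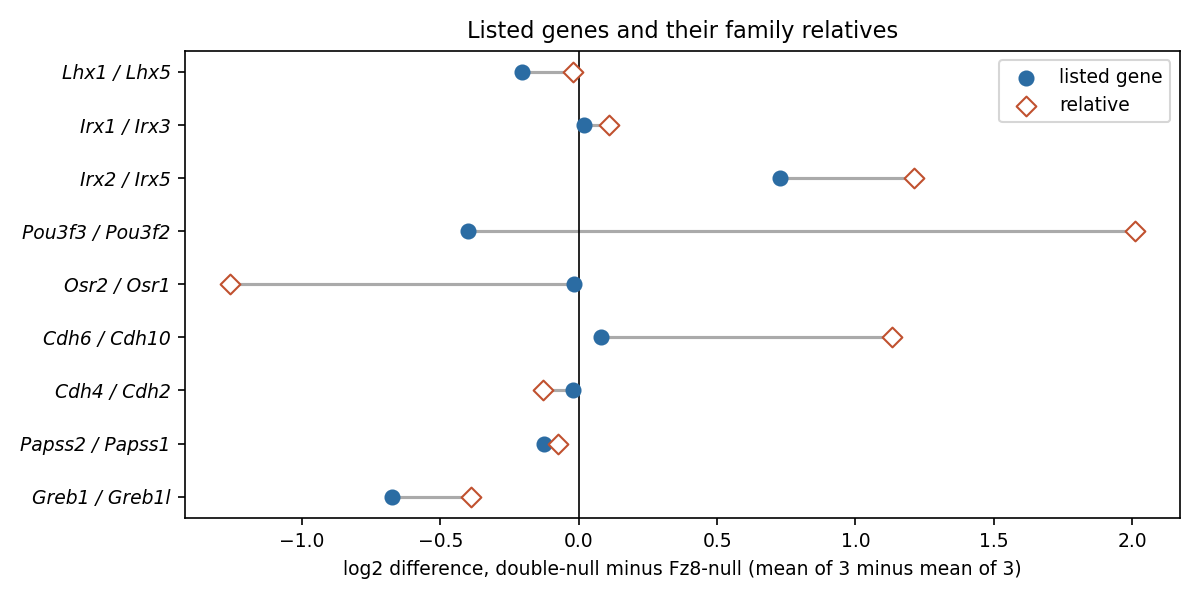
Log2 difference, double-null minus Fz8-null, of each gene (filled circles) and of its family relative (open diamonds), joined by a line, for the 9 measured pairs. The widest gaps are Pou3f3 (-0.40) to Pou3f2 (2.01) and Osr2 (-0.018) to Osr1 (-1.26).

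Some of the 10 genes are also made outside the nephron, so markers of other cells are given beside them. Lhx1 and Pax8, and Emx2 from the list of other genes of the same step, are expressed in the nephric duct or ureteric bud. The 9 ureteric tip genes had medians of -0.75, -1.16 and -0.61 in M1, M2 and M3, with 8 lower (7 without overlap). The 9 ureteric trunk genes had medians of 0.012, -0.33 and 0.22. Pou3f3, Lhx1 and Iroquois genes are expressed in neurons: of 7 measured neuron and neural crest genes 6 lay higher, 2 without overlap, with medians of 0.075, 0.55 and 0.41. Their mean log2 intensity ranged from 5.70 to 5.72 in Fz8-null and from 5.74 to 6.19 in double-null arrays. Liver and erythroid genes were highest in M3, where 7 of the 10 genes were highest among double-null arrays, and next in M2, where 8 of the 10 were lowest. The part of these cells in the values of the 10 genes was not tested. None of the 10 genes lies on the chromosome of Fzd4.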

How the data were processed

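Affymetrix MOE430.2 arrays were hybridized with biotin-labelled cRNA from 100 ng of total RNA of whole E13.5 kidneys, 3 arrays per genotype. The values are log2 probe-set intensities deposited by the authors, who normalized them with RMA per the submitters' processing notes (version not given in the sources used here). Array medians were 6.02 to 6.14. Arrays carry no read depth, so their number limits the precision, and values near 3 to 4 were read as near background.

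Of 45101 probe sets 64 controls were set aside, leaving 45037. The platform annotation gave 1 gene for 34945, several for 932 and none for 9160. The 18193 genes each took their brightest probe set, by the mean over 6 arrays, as representative. One probe set shared between Pou3f3 and another gene was left out. Differences were fitted with limma 3.58.1 (R 4.3.3, lmFit and eBayes) and adjusted by Benjamini-Hochberg over all genes, and over all probe sets where other probe sets of a gene are given. Permutation tests were exact and two-sided (20 splits). Deviations from group means correlated at 0.167, -0.14 and 0.0896 between arrays of the same number, so numbers were not treated as pairs.

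All 10 genes are named, with their relatives, Fzd4 and Fzd8, and from the list of 26 the 4 genes of smallest p and Jag1. Heyl and Lgr5 were named after their values were seen. The genes and lists were chosen with earlier results of these data known. Alternatives were a minimum mean of 6, array weights, a replicate block, quantile normalization, a trended and robust eBayes, equal array medians, leaving out each array, the mean of all probe sets and an adjusted p of 0.1. Chosen after seeing the data were the B1 covariate and leaving out M1 and M2, or M2 and M3, together, and leaving podocyte and tubule genes with a mean below 4 out of that list. Pax2 and some listed genes were not analysed here.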

Additional observations from a re-analysis of the deposited data

How the results depend on the processing

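The number of genes passing over all genes, 5, was 7576 with array weights, which weighted M1 at 3.93 and M3 at 0.211, 3 with the replicate block, 1 with the mean of all probe sets, 11 at an adjusted p of 0.1, 3 with the B1 covariate, 55 without M1 and M2, 834 without M2 and M3, and between 2 (without C3) and 3292 (without M3) on leaving out 1 array. Leaving out 2 double-null arrays leaves 1, which is assumed to vary like the Fz8-null arrays, so these calls compare a single array with 3. Of the 10 genes 2 passed with array weights (Irx2 at 0.92 and Greb1 at -0.59), 0 to 2 on leaving out 1 array (the same 2, without M3) and 1 without M2 and M3 (Irx2 at 0.99). The number lying lower, 7, was 4 with the mean of all probe sets, 3 with the B1 covariate, 3 without M1 and M2, and 4 (without M2) to 9 (without C3) on leaving out 1 array. Groups did not overlap for 8 of the 10 without M1 and M2, where 53.0% of all genes did not. Without M2 and M3 it was 5 of the 10, where 69.3% of all genes did not overlap. On leaving out 1 array it stayed at 4 of the 10. This count could not fall, since leaving out an array cannot make separate groups overlap. The share of all genes then ran from 23.1% (without C2) to 39.4% (without C1) and 53.4% (without M3). The median of the 10 genes was 0.24 with the B1 covariate. The differences of Irx2, Greb1, Pou3f3 and Lhx1 kept their sign under every alternative run, and the replicate block moved none of the 10 genes past the threshold. Their size did change: under the B1 covariate Irx2 stood at 0.44, Greb1 at -0.27, Pou3f3 at -0.36 and Lhx1 at -0.072. Among the others the sign turned as follows, none of them called, and the cause was not tested. With the mean of all probe sets Pax8 stood at 0.13, Osr2 at 0.022, Cdh4 at 0.096 and Jag1 at -0.061, and against relatives Papss2 at 0.013 and Greb1 at 0.18. With quantile normalization Irx1 stood at -0.13, Osr2 at 0.11, Cdh4 at 0.12, Papss2 at 0.012 and Lhx1 against Lhx5 at 0.016. With equal array medians Osr2 stood at 0.038 and Cdh4 at 0.036. With array weights Cdh6 stood at -0.90, Cdh4 at 0.0096 and Papss2 at 0.045. With the B1 covariate Pax8 stood at 0.31, Osr2 at 0.42, Cdh4 at 0.16, Papss2 at 0.37 and Fzd8 at 0.030. Without M1 and M2 Pax8 stood at 0.32, Osr2 at 0.36, Cdh4 at 0.23 and Papss2 at 0.31. Without M2 and M3 Osr2 stood at 0.070, Cdh6 at -0.81 and Papss2 at 0.090. On leaving out 1 array Pax8 ran from -0.38 to 0.098, Irx1 from -0.24 to 0.31, Osr2 from -0.20 to 0.21, Cdh6 from -0.40 to 0.52, Cdh4 from -0.15 to 0.12, Papss2 from -0.34 to 0.20 and Jag1 from -0.030 to 0.19. Against relatives Lhx1 ran from -0.33 to 0.023, Cdh4 from -0.14 to 0.28 and Papss2 from -0.20 to 0.15. Fzd4 did not pass without C1 (-6.18, limma adjusted p = 0.0635) or C3 (-6.09, limma adjusted p = 0.0507). Irx1 and Irx2 had a mean below 6 and gave no value under that minimum.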
